A study of Mus musculus with 22 samples.

Results

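Late-passage mouse embryonic fibroblasts (MEFs) that lacked both S6 kinases were compared with late-passage wild-type (WT) MEFs across all genes. Members of the comparison were the late libraries of the *S6K1/S6K2* set as labelled, 3 of double knockout (DKO) and 4 of WT cells, which made 7 of the 22 libraries of the series. The study used MEFs to follow senescence, the state in which primary cells stop dividing after serial passage. Both groups were primary MEFs grown from mid-gestation embryos without head and viscera, carried in atmospheric oxygen and collected at passage 8. DKO embryos lacked S6K1 and S6K2 throughout the body and came from crosses of S6K2-null mice that carried a single working *S6K1* allele. Their WT controls came from other, WT mothers bred at earlier stages, so genotype and litter cannot be told apart. Early WT MEFs of the same set, at passage 3 (4 libraries), shared the model fit, and a separate set held 3 late *S6K1* KO and 4 late WT libraries. The labels do not say which libraries came from separate embryos, so *P* values measure the spread between these libraries. Below, DKO 1 to 3 and late WT 1 to 4 name the libraries in accession order and imply no pairing.

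S6K1 and S6K2 are kinases activated by mTORC1, a complex that senses nutrients and growth factors. They phosphorylate ribosomal protein S6 and other regulators of translation, and through these act on cell size, ribosome production and the synthesis of lipids and nucleotides. In cultures of MEFs, serial passage lowers the level of genes of the cell cycle and raises that of secreted factors.

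Without both kinases, 45 of 53 macrophage markers, 12 of 47 DNA replication genes and 19 of 63 mitosis genes tested were called lower and none of them higher, against 3.95% of all genes called lower. Fewer genes were called higher, among them *Fxyd6*, *Igfbp3* and *Timp3*. Of the 14365 genes tested by edgeR, 686 (4.78%) differed at an adjusted *P* under 0.05, of which 568 (3.95%) were lower and 118 (0.821%) were higher in DKO MEFs. The fall exceeded 2-fold for 405 of the lower genes and the rise exceeded 2-fold for 50 of the higher genes. Among the lower genes, 566 did not overlap between the groups, as did 115 of the higher genes. Over all genes tested, 16.4% did not overlap, 10.6% on the lower and 5.73% on the higher side. The number of calls depended on single libraries. Without DKO 2 it was 97, without DKO 3 it was 157, without late WT 2 it was 328 and without late WT 3 it was 456. Without late WT 1 it was 783, with 275 of them higher, and without late WT 4 the higher genes numbered 55. DESeq2 called 1172 genes, of which 28.9% were higher, against 17.2% in the edgeR fit and 35.1% without late WT 1. None of the 686 calls changed direction in any of these fits, which few could do, as nearly all had no overlap between the groups.

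**Figure D1:**
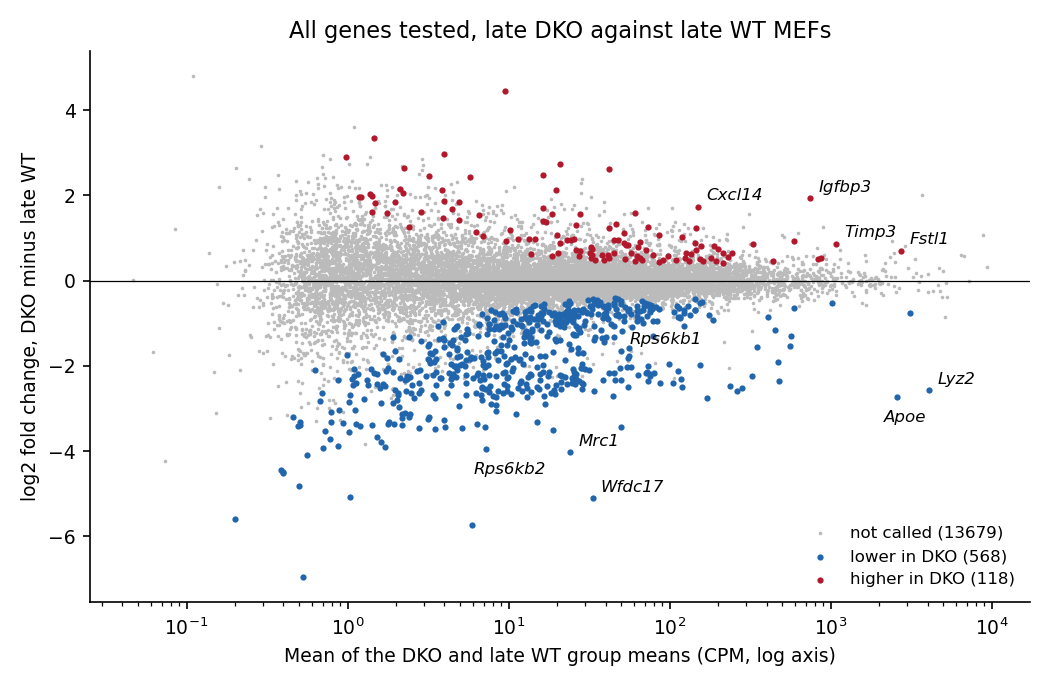
Each point is 1 of the 14365 genes tested, with its mean level over the group means (CPM, counts scaled to library size, log axis) against its log2 fold change, DKO minus late WT. The 568 lower genes (blue) reach larger changes than the 118 higher genes (red), with a median absolute log2 fold change of 1.74 against 0.92.

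The 7 libraries held 10742454 to 15995247 counts on genes, where 3 counts corresponded to 0.187 to 0.298 CPM (counting error only), and their Y-linked and *Xist* levels showed that the groups differed in embryo sex. DKO 2 and late WT 1, 2 and 3 expressed Y-linked genes, whereas DKO 1, DKO 3 and late WT 4 expressed *Xist*. A fit with average Y-linked expression as covariate called 552 genes. The 53 tested genes of a list of 57 macrophage markers summed to 4437, 1549 and 1307 CPM in DKO 1 to 3 and to 11561, 15855, 13635 and 9446 CPM in late WT 1 to 4. Early WT MEFs summed to 1200, 897, 2338 and 2763 CPM. Late WT libraries were thus the highest of the 3 groups, DKO 1 stood above DKO 2 and DKO 3, and DKO and early WT libraries overlapped. Fibroblast markers summed to 44141, 43683 and 48530 CPM in DKO and 44693, 36136, 35330 and 32533 CPM in late WT MEFs. *Cd163* and *Lilrb4a* had no count in any of the 7 libraries. In bulk RNA, fewer cells of a type and less RNA per cell cannot be told apart.

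**Figure D2:**
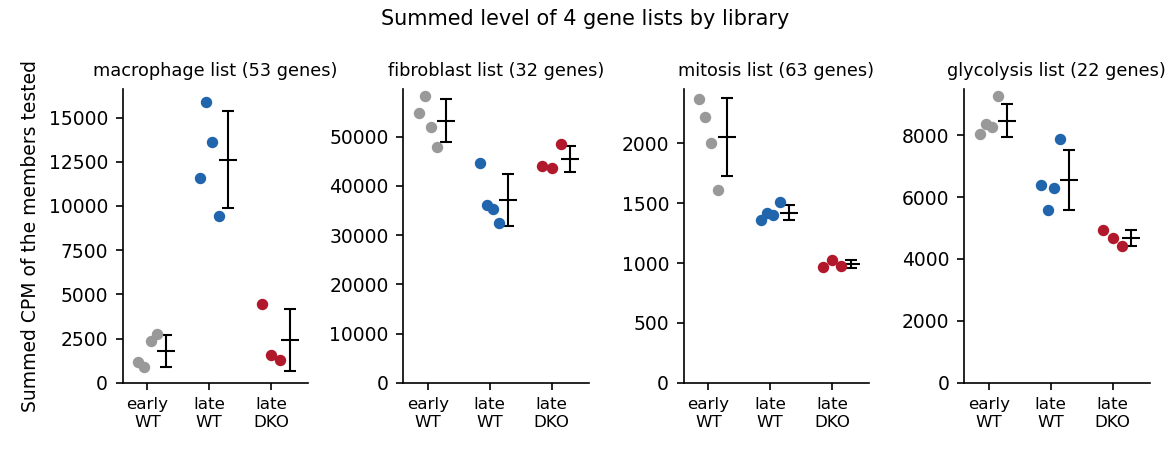
Summed CPM of the tested members of the macrophage, fibroblast, mitosis and glycolysis lists in each library (points) of the early WT, late WT and DKO groups, with the group mean and SD at the right of each group. Macrophage sums run from 9446 to 15855 CPM in late WT and from 1307 to 4437 CPM in DKO libraries, and mitosis and glycolysis sums are lower in every DKO library than in every late WT library.

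The targeted genes were lower in all DKO libraries. *Rps6kb1*, which encodes S6K1 (chr11:86498869-86544885, GRCm38.p6), was at 23.3, 20.96 and 28.9 CPM in DKO 1 to 3 and at 78.9, 68.4, 66.2 and 90.8 CPM in late WT 1 to 4 (log2 fold change −1.64, SE 0.15, adjusted *P* = 0.000786, edgeR). *Rps6kb2*, which encodes S6K2 (chr19:4156792-4163383), was at 0.5997, 0.497 and 1.39 CPM in DKO and 16.96, 11.5, 11.6 and 14.3 CPM in late WT libraries (log2 fold change −3.95, SE 0.32, adjusted *P* = 0.000412). Reads on both genes therefore remained in the DKO libraries, with 7, 5 and 22 counts on *Rps6kb2* in DKO 1 to 3.

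In a list of 35 genes of the S6K and mTOR pathway, which holds the targeted pair, 4 members were called, all lower (11.4% against 3.95% of all genes), with a list median of −0.02 against −0.005 over all genes. Beside the targeted pair these were 2 members of the related RSK family, which act downstream of ERK. *Rps6ka1* (RSK1) was at 6.08, 4.67 and 4.11 CPM in DKO and 15.5, 22.5, 14.2 and 15.8 CPM in late WT libraries (log2 fold change −1.78, SE 0.25, adjusted *P* = 0.00423, edgeR), with every DKO library below every late WT library. *Rps6ka2* (RSK3), chosen after its values were seen, had a log2 fold change of −0.90 (adjusted *P* = 0.0271), which was lost without late WT 2 or 4 or DKO 2 or 3 (adjusted *P* up to 0.14). Other members given here were also chosen after their values were seen. Genes of the kinases' direct substrates did not pass, with log2 fold changes of −0.04 for *Rps6*, 0.09 for *Eif4b*, 0.02 for *Eef2k* and −0.18 for *Pdcd4*. *Mtor* itself stood at −0.45 (adjusted *P* = 0.284) and *Eif4ebp1*, a translational repressor, at −0.53 (adjusted *P* = 0.137).

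Of the 47 DNA replication genes listed and tested, 12 were called lower in DKO MEFs and none higher (25.5% lower against 3.95% of all genes), all 47 log2 fold changes were negative, and the median was −0.68. *Cdt1*, which loads the replicative helicase at origins, was at 5.74, 4.77 and 6.002 CPM in DKO and 13.7, 16.96, 16.7 and 10.9 CPM in late WT libraries (log2 fold change −1.40, SE 0.19, adjusted *P* = 0.00385, edgeR). *Gmnn*, the inhibitor of *Cdt1*, was at 10.1, 5.07 and 7.08 and 16.4, 22.5, 19.7 and 22.7 CPM (log2 fold change −1.45, SE 0.23, adjusted *P* = 0.00577). Both a licensing factor and its inhibitor thus fell, without overlap between the groups. *Uhrf1*, which maintains DNA methylation at replication, was at 5.14, 5.46 and 4.49 and 9.23, 11.8, 10.04 and 9.62 CPM (log2 fold change −1.02, SE 0.18, adjusted *P* = 0.0103). The helicase genes *Mcm5* and *Mcm6*, named here after their values were seen, changed by −1.20 (adjusted *P* = 0.0156) and −0.94 (adjusted *P* = 0.0147). *Cdt1* and *Gmnn* passed in all 14 alternatives, whereas *Uhrf1*, *Mcm5* and *Mcm6* did not pass without DKO 2 or DKO 3 (adjusted *P* up to 0.0969). The list held 7 calls without late WT 2, 2 without DKO 2 and 7 without DKO 3, and 20 with DESeq2.

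Of 63 genes of mitosis and the spindle tested, 19 were called lower and none higher (30.2% lower against 3.95% of all genes), 61 log2 fold changes were negative and the median was −0.75. *Incenp*, a subunit of the chromosomal passenger complex, was at 11.6, 13.4 and 14.3 CPM in DKO and 26.00, 27.3, 22.7 and 30.2 CPM in late WT libraries (log2 fold change −1.02, SE 0.15, adjusted *P* = 0.00519, edgeR). *Cdca8*, the borealin subunit of the same complex, was at 9.17, 10.3 and 7.96 and 16.1, 17.04, 14.6 and 20.6 CPM (log2 fold change −0.90, SE 0.17, adjusted *P* = 0.0143). *Mki67*, the proliferation marker Ki-67, was at 17.1, 15.3 and 19.6 CPM in DKO, 29.4, 46.5, 34.5 and 40.1 CPM in late WT and 90.1, 82.00, 64.5 and 49.01 CPM in early WT libraries (log2 fold change −1.11, SE 0.22, adjusted *P* = 0.0147). For *Mki67* the 3 groups did not overlap, with early WT highest and DKO lowest. *Aurka*, *Bub1*, *Ccnb1* and *Top2a*, which act at spindle poles, kinetochores, mitotic entry and chromosome decatenation and were chosen after their values were seen, changed by −1.06, −1.13, −0.93 and −0.83, and all were called. *Incenp* passed in all 14 alternatives. *Mki67* and *Cdca8* passed in all but those without DKO 2 or DKO 3 (adjusted *P* up to 0.0959 for *Mki67*), as did *Aurka*, whereas *Bub1*, *Ccnb1* and *Top2a* also failed without DKO 1. The list held 7 calls without late WT 2, 12 without late WT 4, 8 without DKO 1, 1 without DKO 2, 2 without DKO 3, 8 in the fit on all 6 groups and 32 with DESeq2. Macrophage marker sums moved in the same direction between late WT and DKO MEFs, and their part in these falls was not tested. Early WT libraries, collected at passage 3, had mitosis list sums of 1615 to 2375 CPM, above those of late WT and DKO libraries.

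**Figure D3:**
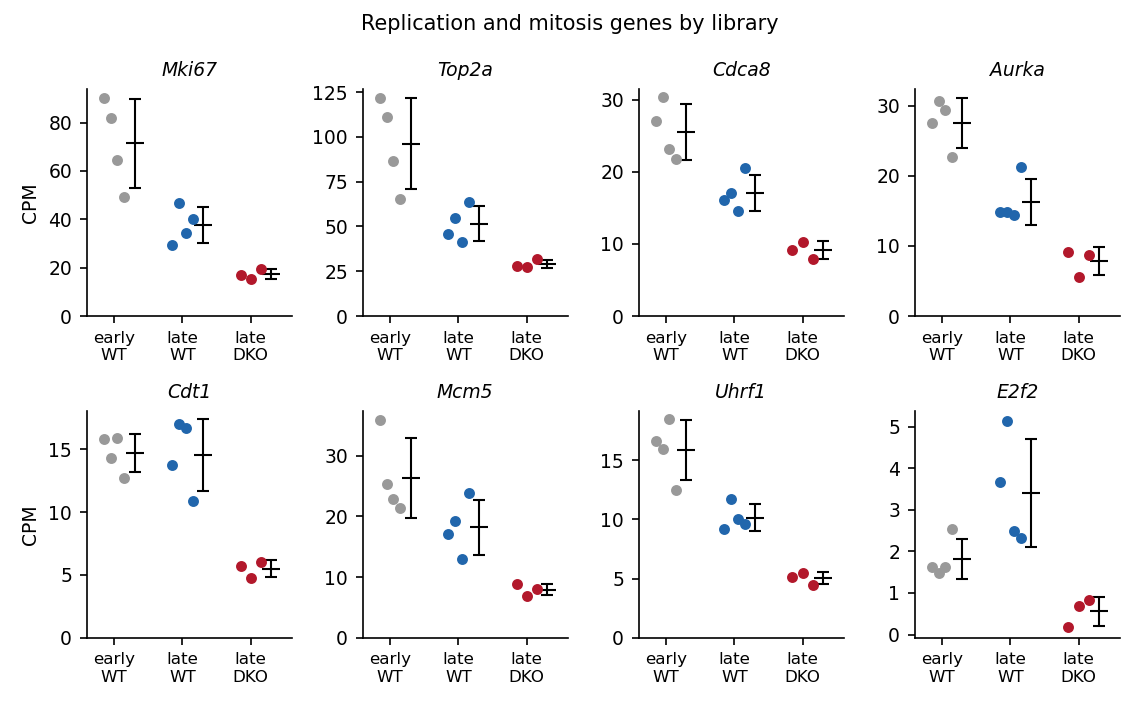
CPM of 8 replication and mitosis genes in each library (points) of the early WT, late WT and DKO groups, with the group mean and SD at the right. In each panel the 3 DKO libraries lie below the 4 late WT libraries, for example 15.3 to 19.6 against 29.4 to 46.5 CPM for *Mki67*.

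Because the called members of both lists were all lower, the listed genes' promoters were searched for 3 motifs, in the 250 bases before the RefSeq start (GRCm38.p6) and on both strands. The first was the cell cycle homology region, CHR, spelled TTTGAA. The second was the CCAAT box, searched as the letters of its name, and like the CHR it is known from mitotic promoters. The third was the E2F site in any of 4 spellings. The spelling TTCCCGC was searched first, followed by the variants that differ inside the word, TTGGCGC in one case, TTCGCGC in another and TTGCCGC in the last. A reversed CCAAT box and the second E2F spelling can overlap. Among 53 mitosis genes with a promoter in the table, 32.1% held a CHR and 71.7% a CCAAT box, against 16.3% and 34.5% of all 27025 promoters and 10.5% and 36.3% of those of tested genes. Among the 15 mitosis genes called lower that had an entry, 5 held a CHR and 12 a CCAAT box. E2F words stood in 44.4% of 36 replication promoters and in 4 of the 11 called lower, against 7.97% of all promoters and 14.02% of those of tested genes. A CCAAT box stood in 63.9% of these 36 replication promoters, so it was not particular to the mitosis list. The promoters below, of called genes that hold a match, show where these letters lie. Matches are in capitals only for the motifs of the gene's own list (CCAAT box and CHR for *Cdca8* and *Mki67*, E2F for *Uhrf1*). The word TTGGCGC in *Mki67* and CCAAT in *Uhrf1* are thus left in lower case. The promoters cover chr4:124936918-124937167 (minus strand), chr7:135716380-135716629 (minus strand) and chr17:56303087-56303336 (plus strand).
Cdca8: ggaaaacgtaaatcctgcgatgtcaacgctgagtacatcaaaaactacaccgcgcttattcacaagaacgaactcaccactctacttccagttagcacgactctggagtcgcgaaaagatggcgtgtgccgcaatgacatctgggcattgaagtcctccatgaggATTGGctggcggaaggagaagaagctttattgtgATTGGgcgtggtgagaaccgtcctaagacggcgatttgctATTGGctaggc
Mki67: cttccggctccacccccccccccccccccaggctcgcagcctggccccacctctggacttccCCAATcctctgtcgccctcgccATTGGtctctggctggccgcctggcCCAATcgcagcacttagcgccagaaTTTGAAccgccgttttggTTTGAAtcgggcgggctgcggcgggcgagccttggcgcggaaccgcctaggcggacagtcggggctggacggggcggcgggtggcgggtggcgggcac
Uhrf1: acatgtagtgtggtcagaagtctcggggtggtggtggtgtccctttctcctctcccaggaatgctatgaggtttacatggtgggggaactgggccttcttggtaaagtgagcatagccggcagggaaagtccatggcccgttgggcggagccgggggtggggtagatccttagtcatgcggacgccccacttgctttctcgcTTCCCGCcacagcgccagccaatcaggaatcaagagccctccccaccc
In *Cdca8*, 3 CCAAT boxes in reverse orientation began at positions −85, −51 and −11 from the start. *Mki67* held 3 CCAAT boxes further upstream and 2 CHR motifs that began at −116 and −98. The *Uhrf1* window held 1 E2F word, beginning at −48. The promoter of *Birc5*, another mitotic gene called lower, held neither a CHR nor a CCAAT box in this window. That of *Cdt1*, the replication gene with the smallest *P*, held no E2F word.

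Of 34 cell cycle regulators tested, activators and inhibitors together, 3 were called, all lower (8.82% against 3.95% of all genes), with a median of −0.20. *E2f2*, an activating E2F factor, was at 0.171, 0.695 and 0.821 CPM in DKO and 3.68, 5.13, 2.49 and 2.32 CPM in late WT libraries (log2 fold change −2.56, SE 0.49, adjusted *P* = 0.0143, edgeR), and *E2f8*, a repressing E2F, changed by −1.31 (adjusted *P* = 0.0356). *Trp53* was at 56.7, 51.6 and 67.7 and 94.6, 93.1, 67.1 and 91.3 CPM (log2 fold change −0.56, SE 0.14, adjusted *P* = 0.045), where DKO 3 and late WT 3 overlapped. *E2f2* did not pass without DKO 2 (adjusted *P* = 0.0706), and *E2f8* and *Trp53* did not pass in 9 and 10 of the 14 alternatives.

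*Cdkn2a*, which encodes p16 and p19ARF, inhibitors that act to bring about passage-induced arrest, was at 777, 571 and 414 CPM in DKO and 432, 615, 630 and 353 CPM in late WT libraries (log2 fold change 0.21, SE 0.27, adjusted *P* = 0.746, edgeR). The groups overlapped, although DKO 1 lay above and late WT 4 below every library of the other group, and without DKO 1 the sign turned to −0.040. *Cdkn1a*, which encodes p21, was at 894, 837 and 757 and 830, 627, 861 and 596 CPM (log2 fold change 0.19, SE 0.19, adjusted *P* = 0.665). Of 30 p53 targets tested, none was called by edgeR or DESeq2 and 4 had an unadjusted *P* under 0.05, with a median of 0.04. The death receptor gene *Fas* had the smallest *P* among them, at 0.47 (adjusted *P* = 0.15). In 30 genes of nucleotide synthesis the median was −0.32 and none was called by edgeR, with 11 at an unadjusted *P* under 0.05 and 4 called lower by DESeq2. *Rrm2*, the S-phase subunit of ribonucleotide reductase, stood at −0.46 (adjusted *P* = 0.0763).

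Genes of ribosomal proteins did not move as a group. Of the 79 tested, none was called by edgeR or DESeq2 and none had an unadjusted *P* under 0.05, and their log2 fold changes ran from −0.22 to 0.32 with a median of −0.004. *Rpl10*, the member with the smallest *P*, was at 465, 427 and 331 CPM in DKO and 463, 532, 429 and 454 CPM in late WT libraries. Many ribosomal protein genes have processed copies, so their counts are uncertain. Ribosome biogenesis genes had a median of −0.27, with 41 of 44 negative, but none was called by edgeR, 11 had an unadjusted *P* under 0.05 and DESeq2 called 1. *Pes1*, a factor of large-subunit maturation, was at 68.7, 61.8 and 73.1 and 90.2, 85.7, 92.8 and 89.2 CPM (log2 fold change −0.40, SE 0.11, adjusted *P* = 0.0565), without overlap.

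Of 22 glycolysis genes 2 were called lower and none higher (9.09% lower against 3.95% of all genes), with 19 negative and a median of −0.44. *Gapdh*, which oxidizes glyceraldehyde 3-phosphate and also has many processed copies, was at 327, 278 and 268 CPM in DKO and 542, 503, 403 and 643 CPM in late WT libraries (log2 fold change −0.84, SE 0.16, adjusted *P* = 0.0139, edgeR). *Aldoa*, the aldolase of the same pathway, was at 900, 819 and 804 and 1291, 1059, 1157 and 1328 CPM (log2 fold change −0.52, SE 0.13, adjusted *P* = 0.0442). The calls rested on few libraries. *Gapdh* did not pass without DKO 2 or DKO 3 or in the fit on all 6 groups (adjusted *P* up to 0.2), and *Aldoa* did not pass when any of the 7 libraries was left out (up to 0.337). In the S6K1 single knockout set the 22 genes had a median of 0.40 with 20 positive, none called, and the difference between the effects was not called for any of them. *Gapdh* and *Aldoa* stood there at 0.50 and 0.54.

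Serine and amino acid genes, many driven by the transcription factor ATF4, had 4 of 33 called lower (12.1% against 3.95%), with 30 negative and a median of −0.33. *Psat1*, which makes the serine precursor phosphoserine, was at 96.5, 69.1 and 81.4 CPM in DKO and 141, 163, 125 and 173 CPM in late WT libraries (log2 fold change −0.87, SE 0.16, adjusted *P* = 0.0125, edgeR). *Glul*, glutamine synthetase, was at 25.7, 30.3 and 23.6 and 39.5, 49.1, 43.1 and 51.6 CPM (log2 fold change −0.79, SE 0.15, adjusted *P* = 0.0147). *Cth* and *Shmt2*, which make cysteine and mitochondrial one-carbon units and of which *Shmt2* was chosen after its values were seen, changed by −1.08 (adjusted *P* = 0.0398) and −0.63 (adjusted *P* = 0.0476). *Bcat1*, the cytosolic branched-chain transaminase and no member of a list, was chosen after its values were seen and changed by −1.34 (adjusted *P* = 0.0204). None of these 5 passed without DKO 2 or DKO 3 (adjusted *P* up to 0.233), and *Cth* and *Shmt2* also failed without late WT 1 or 2.

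Genes of NADPH supply and antioxidant defence had 2 of 26 called lower (7.69% against 3.95% of all genes), with a median of −0.26. *G6pdx*, the entry enzyme of the pentose phosphate pathway, was at 23.3, 26.3 and 32.5 CPM in DKO and 53.5, 49.6, 39.04 and 58.8 CPM in late WT libraries (log2 fold change −0.87, SE 0.18, adjusted *P* = 0.0169, edgeR), which was lost without DKO 2 and in the fit on all 6 groups (adjusted *P* up to 0.221). *Cat*, catalase, changed by −0.48 (adjusted *P* = 0.0342) and did not pass in 9 of 14 alternatives. All 24 cholesterol synthesis genes tested were negative with a median of −0.24, but none was called by edgeR, 8 had an unadjusted *P* under 0.05 and DESeq2 called 1. In fatty acid synthesis 1 of 18 was called, lower (5.56% against 3.95% of all genes). This was *Agpat2*, which acylates lysophosphatidate, at −0.47 (adjusted *P* = 0.0404, edgeR), and its call was lost whichever of the 7 libraries was left out.

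No mitochondrial energy list held a call. The TCA cycle list had a median of −0.13 over 23 genes, the nuclear-encoded respiratory chain −0.03 over 63, fatty acid oxidation −0.03 over 20 and the mitochondrially encoded genes −0.27 over 7, of which 6 were negative, against −0.005 over all genes. None of these was called by edgeR or DESeq2, and 3, 2, 3 and 0 members had an unadjusted *P* under 0.05. The leading members, *Mdh2*, *Cyc1*, *Acads* and *mt-Nd2*, stood at −0.32 (adjusted *P* = 0.183), −0.35 (adjusted *P* = 0.121), −0.41 (adjusted *P* = 0.0979) and −0.33 (adjusted *P* = 0.575).

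Macrophage markers were the list with the most calls. Of 53 tested, 45 were called lower and none higher, all 53 log2 fold changes were negative, 51 did not overlap between the groups (against 10.6% of all genes lower without overlap), and the median was −2.30. *Cd68*, a lysosomal glycoprotein of macrophages, was at 41.04, 23.7 and 18.5 CPM in DKO and 162, 179, 136 and 110 CPM in late WT libraries (log2 fold change −2.40, SE 0.35, adjusted *P* = 0.00511, edgeR). *Ncf4*, a subunit of the phagocyte oxidase, was at 4.198, 2.19 and 2.401 and 17.3, 20.5, 15.1 and 10.5 CPM (log2 fold change −2.44, SE 0.36, adjusted *P* = 0.00487). *Mrc1*, the mannose receptor, was at 5.83, 0.894 and 1.64 and 32.4, 71.99, 36.5 and 41.5 CPM (log2 fold change −4.03, SE 0.60, adjusted *P* = 0.0058). These 3 passed in all 14 alternatives, and DKO 1 was the highest DKO library for each.

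Other defining genes of the lineage were chosen after their values were seen. *Csf1r*, the receptor on which macrophages depend, was at 40.2, 20.7 and 19.02 CPM in DKO and 117, 158, 118 and 108 CPM in late WT libraries (log2 fold change −2.23, SE 0.40, adjusted *P* = 0.0129, edgeR). *Spi1*, which encodes the lineage factor PU.1, and *Adgre1*, which encodes F4/80, changed by −2.30 (adjusted *P* = 0.0129) and −2.13 (adjusted *P* = 0.0228). *Lyz2*, lysozyme, was among the most abundant, at 2336, 635 and 585 and 6427, 9047, 7290 and 5202 CPM (log2 fold change −2.56, SE 0.56, adjusted *P* = 0.0267). *C1qa*, of complement C1q, changed by −2.53 (adjusted *P* = 0.0469). *Csf1r* and *Spi1* did not pass without DKO 2 or DKO 3, and *Adgre1*, *Lyz2* and *C1qa* also failed without late WT 2 or 3 (adjusted *P* up to 0.188). The list held 4 calls without DKO 2, 4 without DKO 3, 16 without late WT 2, 21 without late WT 3, 19 without the filter on low counts and 29 with the Y-linked covariate. The PU.1 word GAGGAAGT stood in 3 of the 29 promoters of called members with an entry, against 2.4% of all promoters.

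Lysosome genes included 6 of 42 called lower (14.3% against 3.95% of all genes), at a list median of −0.08. *Lgmn*, the endopeptidase legumain, was at 329, 254 and 256 CPM in DKO and 600, 668, 650 and 577 CPM in late WT libraries (log2 fold change −1.16, SE 0.13, adjusted *P* = 0.00155, edgeR) and passed in all 14 alternatives. *Gpnmb*, a glycoprotein of lysosome-rich cells, was at 226, 139 and 227 and 700, 899, 661 and 700 CPM (log2 fold change −1.91, SE 0.36, adjusted *P* = 0.0139), and *Lipa*, the acid lipase, changed by −0.69 (adjusted *P* = 0.0147). *Gpnmb* and *Lipa* did not pass without DKO 2 or DKO 3 (adjusted *P* up to 0.0904). *Apoe*, a lipid carrier that macrophages make in large amounts, was chosen after its values were seen, at 1239, 421 and 357 and 3423, 4718, 5069 and 4629 CPM (log2 fold change −2.73, SE 0.59, adjusted *P* = 0.0264), and did not pass without late WT 2 or 3 or DKO 2 or 3. These genes were lower in DKO than in late WT MEFs, as were the macrophage sums given above, whose part in their falls was not tested. DKO 1 was the highest DKO library for the sums, *Lgmn*, *Lipa* and *Apoe*, whereas *Gpnmb* was at similar levels in DKO 1 and DKO 3.

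Fibroblast markers stood at high levels in both groups. Of 32 tested, 24 were positive with a median of 0.33, and 1 was called, higher (against 0.821% of all genes). This was *Pdgfrb*, a receptor for platelet-derived growth factor, at 284, 265 and 272 CPM in DKO and 222, 186, 194 and 147 CPM in late WT libraries (log2 fold change 0.55, SE 0.14, adjusted *P* = 0.044, edgeR). It did not pass in 9 of the 14 alternatives. The most abundant markers did not pass, with log2 fold changes of 0.16 for *Col1a1*, 0.22 for *Col1a2*, −0.01 for *Vim* and 0.60 for *Sparc* (adjusted *P* = 0.0808), and late WT MEFs averaged 3802, 4608, 7279 and 5158 CPM. Contractile genes had a median of 0.03 over 19, with none called by either tool or at an unadjusted *P* under 0.05, and *Ccn1* leading at 0.40 (adjusted *P* = 0.289).

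Markers of other lineages were mostly below the filter on low counts. Among adipocyte genes 11 of 20 were tested and 3 were called lower (27.3% of those tested, against 3.95% of all genes). *Adipoq*, *Cfd* and *Lep* had no count in any of the 7 libraries. *Cebpa*, a transcription factor of adipocytes and myeloid cells, was at 14.4, 11.8 and 9.98 CPM in DKO and 37.7, 38.9, 39.5 and 31.2 CPM in late WT libraries (log2 fold change −1.61, SE 0.18, adjusted *P* = 0.00155, edgeR). *Cd36*, a fatty acid transporter also found on macrophages, was at 1.97, 0.199 and 1.39 and 9.35, 14.6, 13.9 and 14.8 CPM (log2 fold change −3.42, SE 0.56, adjusted *P* = 0.00731). Both passed in all 14 alternatives, whereas *Fabp5*, a fatty acid binding protein, at −2.17 (adjusted *P* = 0.0183), did not pass without DKO 2 or DKO 3. Of 10 endothelial genes tested, 6 were positive with a median of 0.50, and 1 was called, lower (10% against 3.95% of all genes). This was *Vwf*, von Willebrand factor, at −2.14 (adjusted *P* = 0.0171, edgeR), lost without DKO 2 or DKO 3 (adjusted *P* up to 0.0997). *Cldn5* and *Robo4* had no count.

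No member was called by edgeR among 11 skeletal muscle (median −0.18), 11 cartilage and bone (0.62), 10 neural and glial (0.23), 10 epithelial and mesothelial (0.20), 31 *Hox* (0.08) and 49 regional transcription factor genes (0.51) tested. Between 1 and 3 members of each had an unadjusted *P* under 0.05, except 13 of the regional factors, of which DESeq2 called 3 higher. DESeq2 also called 1 muscle gene lower and 1 neural and 1 epithelial gene higher. The leading members were *Pax3* at −2.69 (adjusted *P* = 0.0962), *Sox6* at 1.42 (adjusted *P* = 0.164), *S100b* at 2.89 (adjusted *P* = 0.0601), *Upk3b* at 1.69 (adjusted *P* = 0.0608), *Hoxa10* at 1.11 (adjusted *P* = 0.217) and *Hand2* at 0.89 (adjusted *P* = 0.081). Of 25 markers of other immune cells only *Lck* passed the filter, with 3, 2 and 3 counts in DKO and 10, 3, 0 and 13 counts in late WT libraries (adjusted *P* = 0.632, edgeR). The 4 Y-linked genes and *Xist* were not called.

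**Figure D4:**
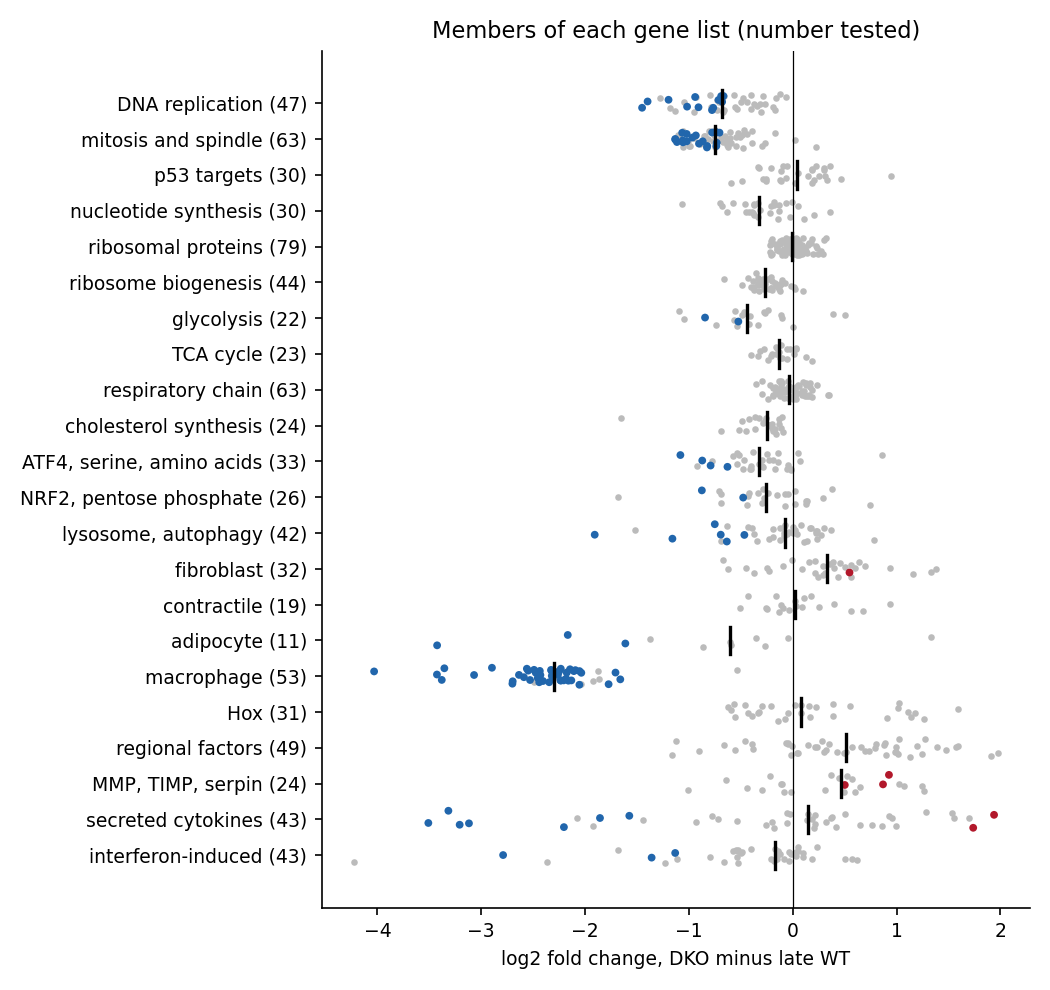
Log2 fold change, DKO minus late WT, of each tested member of 22 gene lists (points, the number tested in brackets), with members called lower in blue, called higher in red, others in grey and the list median as a black bar. Macrophage members lie far to the left with a median of −2.30, replication and mitosis members centre on −0.68 and −0.75, and ribosomal protein and respiratory chain members lie around 0.

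Secreted factors were called in both directions. Of 43 cytokines and growth factors of the senescence-associated secretory phenotype tested, 7 were called lower (16.3% against 3.95% of all genes) and 2 higher (4.65% against 0.821%), at a median of 0.14. The lower genes were the chemokines *Ccl3*, *Ccl4*, *Ccl6*, *Ccl9*, *Cxcl2* and *Cxcl16* and the cytokine *Tnf*, which macrophages also make. *Ccl3* was at 3.68, 2.28 and 2.21 CPM in DKO and 27.4, 40.5, 22.96 and 17.7 CPM in late WT libraries (log2 fold change −3.32, SE 0.45, adjusted *P* = 0.00401, edgeR) and passed in all 14 alternatives, though its gene overlaps *Ccl4* in RefSeq and their reads could be shared. *Ccl9* was at 4.88, 2.78 and 1.58 and 25.2, 49.5, 32.3 and 31.7 CPM (log2 fold change −3.51, SE 0.57, adjusted *P* = 0.00771), and *Tnf*, chosen after its values were seen, changed by −2.20 (adjusted *P* = 0.031). *Ccl9* and *Tnf* did not pass without DKO 2 or DKO 3, and *Tnf* also failed without late WT 2 or 3 or DKO 1 (adjusted *P* up to 0.139). Early WT libraries had 1.63, 1.302, 3.53 and 4.54 CPM of *Ccl3*, a range that overlapped that of DKO libraries.

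*Igfbp3* and *Cxcl14* were the higher secreted factors. *Igfbp3*, which binds insulin-like growth factors, was at 801, 1272 and 1486 CPM in DKO and 487, 272, 275 and 203 CPM in late WT libraries (log2 fold change 1.94, SE 0.34, adjusted *P* = 0.00998, edgeR). *Cxcl14*, a chemokine that fibroblasts make and chosen after its values were seen, was at 186, 292 and 211 and 111, 50.9, 76.1 and 37.2 CPM (log2 fold change 1.74, SE 0.30, adjusted *P* = 0.0103). Of 18 imprinted and growth factor genes, 1 was called, lower (5.56% against 3.95% of all genes). This was *Igf1*, a growth factor that *Igfbp3* binds, at 100, 71.2 and 68.2 and 166, 184, 202 and 116 CPM, with a log2 fold change of −1.06 just inside the threshold. *Igfbp3* and *Cxcl14* passed in 12 and 13 of 14 alternatives, both failing without DKO 2 (adjusted *P* up to 0.0636), and *Igf1* passed in 6.

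Proteases and their inhibitors had 3 of 24 called higher (12.5% against 0.821% of all genes) and none lower, with a median of 0.47. *Timp3*, an inhibitor of metalloproteinases, was at 1481, 1455 and 1249 CPM in DKO and 778, 844, 842 and 588 CPM in late WT libraries (log2 fold change 0.87, SE 0.17, adjusted *P* = 0.0138, edgeR). *Mmp14*, a membrane metalloproteinase, was at 923, 1003 and 997 and 680, 661, 719 and 692 CPM (log2 fold change 0.50, SE 0.11, adjusted *P* = 0.0281). *Serpine2*, an inhibitor of thrombin, changed by 0.93 (adjusted *P* = 0.045). A metalloproteinase and an inhibitor of such enzymes were thus both called higher. *Timp3* did not pass without DKO 2, *Serpine2* failed without late WT 3, and *Mmp14* and *Serpine2* did not pass without late WT 2 or 4 or DKO 2 or 3 (adjusted *P* up to 0.182).

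Interferon-induced genes had 3 of 43 called lower (6.98% against 3.95% of all genes), at a median of −0.17, and 0 in the fit on all 6 groups. *Psmb8*, an immunoproteasome subunit, was at 12.4, 10.6 and 9.54 CPM in DKO and 27.99, 34.8, 30.3 and 18.3 CPM in late WT libraries (log2 fold change −1.36, SE 0.22, adjusted *P* = 0.007, edgeR). *Trim30a* and *Oas1a*, an inhibitor of signalling and a sensor of double-stranded RNA, changed by −1.13 (adjusted *P* = 0.0156) and −2.79 (adjusted *P* = 0.0185), and both belong to families of close paralogs. *H2-D1*, a class I histocompatibility gene chosen after its values were seen, was at 151, 121 and 114 and 254, 264, 236 and 217 CPM (log2 fold change −0.91, SE 0.12, adjusted *P* = 0.00363) and passed in all 14 alternatives, but its reads can be shared with other class I genes. The 3 listed genes did not pass without DKO 2 or in the fit on all 6 groups, and *Trim30a* and *Oas1a* also failed without DKO 3. Of 24 immediate early genes, 1 was called lower (4.17% against 3.95% of all genes) and 1 higher (4.17% against 0.821%). *Atf3*, a stress-induced factor, was lower at 17.99, 15.3 and 16.7 against 35.7, 45.3, 31.2 and 42.3 CPM (log2 fold change −1.21, SE 0.18, adjusted *P* = 0.00466, edgeR). *Ier2* was higher at 159, 164 and 169 against 92.9, 115, 89.7 and 125 CPM (log2 fold change 0.63, SE 0.16, adjusted *P* = 0.0428). *Atf3* passed in all 14 alternatives and *Ier2* in 6.

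The 10 largest rises among called genes without overlap were mostly in genes of low level. *Fxyd6*, a regulator of the sodium pump, was at 35.4, 20.3 and 28.2 CPM in DKO and 4.55, 5.99, 5.89 and 3.52 CPM in late WT libraries (log2 fold change 2.49, SE 0.24, adjusted *P* = 0.000786, edgeR) and passed in all 14 alternatives. *Car10*, a carbonic anhydrase relative, was at 0.857, 2.58 and 4.55 and 0.499, 0.0713, 0.302 and 0.133 CPM (log2 fold change 3.36, SE 0.69, adjusted *P* = 0.0185). *Kank4*, of a family of adhesion adaptors, was at 2.74, 6.76 and 11.6 and 1.62, 1.14, 0.529 and 0.265 CPM (log2 fold change 2.97, SE 0.59, adjusted *P* = 0.0157). DKO 1 was the lowest DKO library for *Car10* and *Kank4*, close to the highest late WT library. *Scn7a*, a sodium channel, and *Frmd3* changed by 2.42 (adjusted *P* = 0.0139) and 2.45 (adjusted *P* = 0.033). *Wnt10a*, a WNT ligand, *Btc*, an EGF receptor ligand, *Ecrg4*, *Heph*, a copper ferroxidase, and *Cdh8*, a cadherin, changed by 2.06 to 2.89 on the log2 scale, and each of these lost its call in 6 or more of the alternatives. *Car10*, *Kank4* and *Scn7a* did not pass without DKO 2 or DKO 3 (adjusted *P* up to 0.109), *Car10* also failed without late WT 2, and *Frmd3* failed without any of late WT 1, 2 and 4 and DKO 2 and 3.

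Higher genes of greater abundance, chosen after their values were seen, included matrix and signalling proteins. *Fstl1*, a secreted glycoprotein, was at 3561, 3792 and 2849 CPM in DKO and 1947, 1954, 2462 and 1989 CPM in late WT libraries (log2 fold change 0.70, SE 0.15, adjusted *P* = 0.0233, edgeR). *Sfrp1*, a secreted WNT antagonist, was at 170, 136 and 172 and 84.6, 84.2, 87.4 and 58.4 CPM (log2 fold change 1.02, SE 0.17, adjusted *P* = 0.00771) and passed in all 14 alternatives. *Fgf2*, a fibroblast mitogen, was at 62.3, 75.1 and 76.1 and 35.2, 28.7, 44.8 and 22.95 CPM (log2 fold change 1.11, SE 0.22, adjusted *P* = 0.0156). *Osmr*, the oncostatin M receptor, *Col27a1*, a fibrillar collagen, *Nrep* and *Ccn3*, a matricellular protein, changed by 0.81 (adjusted *P* = 0.0138), 1.24 (adjusted *P* = 0.00847), 1.23 (adjusted *P* = 0.0228) and 1.27 (adjusted *P* = 0.0319). *Eln*, elastin, and *Fmod*, the collagen-binding fibromodulin, were called at 2.61 and 2.74 although DKO 2 for *Eln* and DKO 1 for *Fmod* lay within the late WT range. *Fstl1* and *Ccn3* did not pass without late WT 2, DKO 1 or DKO 2, and *Ccn3* also failed without late WT 4 or DKO 3 (adjusted *P* up to 0.318). *Fgf2*, *Osmr* and *Nrep* did not pass without DKO 2 or DKO 3, *Col27a1* without DKO 2, *Nrep* without late WT 2, and *Eln* and *Fmod* without late WT 2, 3 or 4 or DKO 3.

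**Figure D5:**
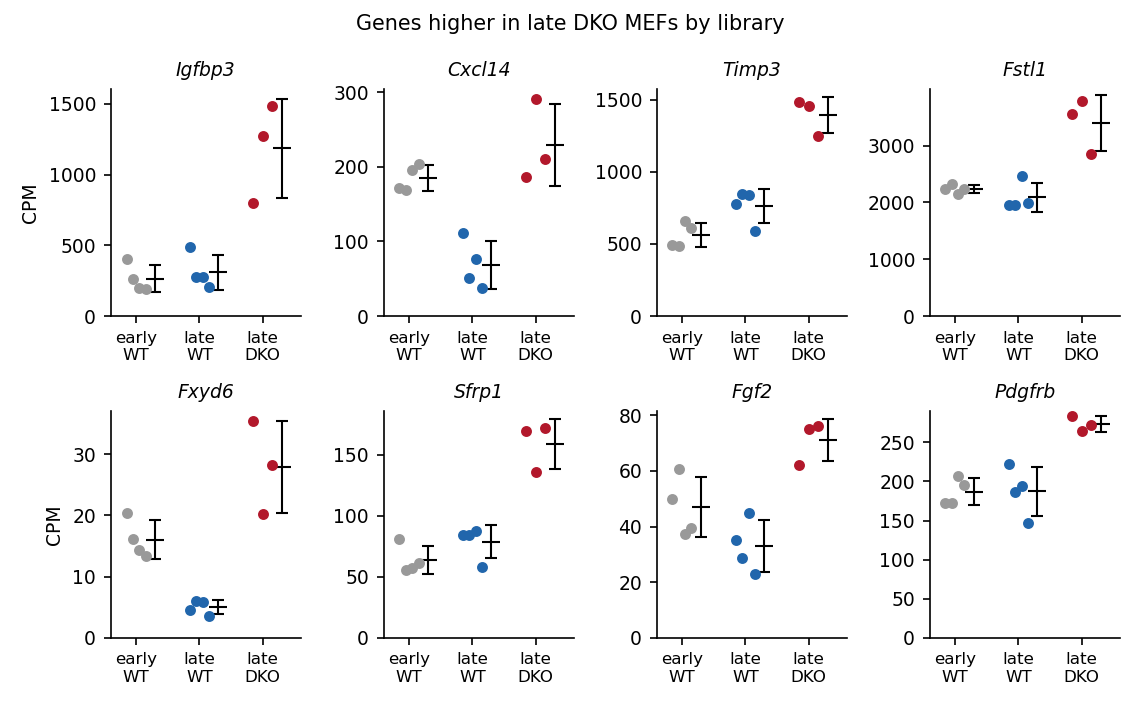
CPM of 8 genes called higher in DKO MEFs in each library (points) of the early WT, late WT and DKO groups, with the group mean and SD at the right. The DKO libraries lie above all late WT libraries in each panel, for example 801 to 1486 against 203 to 487 CPM for *Igfbp3*.

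Among the largest falls, several genes were nearly absent from DKO MEFs. *Wfdc17*, a secreted protein of activated macrophages, was at 4.37, 1.09 and 0.316 CPM in DKO and 40.5, 88.96, 80.6 and 47.96 CPM in late WT libraries (log2 fold change −5.10, SE 0.84, adjusted *P* = 0.00886, edgeR). *Elobl*, an elongin B relative, had 0, 3 and 5 counts in DKO 1 to 3 and 140, 88, 204 and 241 counts in late WT 1 to 4 (adjusted *P* = 0.0213). *Cst7*, a cystatin, had no count in the DKO libraries and 13, 20, 9 and 20 counts in late WT libraries, so it was at least 4.27-fold lower against a floor of 3 counts in each library. *Slfn10-ps*, a Schlafen pseudogene with close paralogs, had 0, 0 and 2 counts against 49, 28, 25 and 17, and passed in all 14 alternatives. *Clec4a1*, *Stra6l* and *Sirpb1c* had at most 3 counts in each DKO library and 12 to 36 in each late WT library. *Tnfrsf13b*, a receptor for B cell survival factors, was at 0, 0.199 and 0.379 and 2.56, 5.56, 1.96 and 2.72 CPM (log2 fold change −3.91, SE 0.80, adjusted *P* = 0.0178). *Mrc1* and *Rps6kb2*, described above, completed this group of 10. Without DKO 2 or DKO 3, *Wfdc17*, *Elobl*, *Cst7*, *Clec4a1*, *Stra6l*, *Sirpb1c* and *Tnfrsf13b* did not pass (adjusted *P* up to 0.105), and *Elobl* and *Sirpb1c* also failed without DKO 1.

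The DKO effect was set beside that of S6K1 loss alone, in the other set of MEFs, which shares no library with the first. In that set *Xist* averaged 0.221 CPM (SD 0.382) in *S6K1* KO and 121 CPM (SD 83.5) in late WT libraries. *Kdm5d*, a Y-linked gene, averaged 9.99 CPM (SD 2.26) and 2.80 CPM (SD 5.59). Embryo sex thus differed between these groups, in the direction opposite to the DKO set. It also enters the difference between the knockouts, and its part in the *S6K1* KO effect was not tested. In the *S6K1* set 6 of 14132 genes (0.0425%) were called, 0.0354% lower and 0.00708% higher, against 1499 at an unadjusted *P* under 0.05. Genes called lower in DKO MEFs were negative in *S6K1* KO MEFs in 504 of the 559 that were tested, with a median of −0.59, against −0.01 over all genes tested in both. Genes called higher were positive in 57 of 116, with a median of −0.01. Macrophage markers had a median of −0.83 in *S6K1* KO MEFs with 52 of 53 negative, replication genes −0.32 with 41 of 47 negative and mitosis genes −0.32 with 58 of 63 negative. All 6 genes called in *S6K1* KO MEFs were also called in DKO MEFs, in the same direction. They were *Rps6kb1*, at −1.67 in *S6K1* KO MEFs, *Wfdc17* at −3.67, *Slfn10-ps* at −2.77, *Ccl4* at −2.34, *Ccl9* at −2.16 and 1 higher gene without a symbol. The 4 lower genes other than *Rps6kb1* lie 2.79 to 3.46 Mb from it.

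The difference between the DKO and *S6K1* KO effects was tested as an interaction over all 22 libraries. Of 14886 genes edgeR called 1 (0.00672%), *Rps6kb2*, with a difference of −4.24 (SE 0.37, adjusted *P* = 4.01e-06). A further count of 1626 genes had an unadjusted *P* under 0.05, DESeq2 called 63, and leaving out single libraries gave 1 to 5, with 5 without DKO 1. For *Igfbp3* the effects were 1.94 and −0.20 with a difference of 2.15 (SE 0.57, adjusted *P* = 0.277), and for *Gapdh* the difference was −1.33 (SE 0.47, adjusted *P* = 0.331). For *Mki67* it was −0.66 (SE 0.39, adjusted *P* = 0.563) and for *Cd68* −1.80 (SE 0.56, adjusted *P* = 0.302). Apart from *Rps6kb2*, edgeR thus called no gene as differing between the knockouts.

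Called genes were also counted around the targeted loci, within 10 Mb on either side in GRCm38.p6. Near *Rps6kb1* on chromosome 11, 28 of 209 other tested genes (13.4%) were called, 25 lower and 3 higher, against 4.92% of the 13018 others with a position. Near *Rps6kb2* on chromosome 19, 20 of 204 (9.8%) were called, all lower, against 4.98%. Among these were *Mpeg1* of the macrophage list and *Incenp* of the mitosis list, the latter 5.71 Mb from *Rps6kb2*. *Car10*, of the 10 largest rises, lies 6.55 Mb from *Rps6kb1*. Any part of nearness to the targeted genes was not tested. The *Rps6kb1* window holds the *Ccl3* to *Ccl9* and Schlafen gene clusters, which lie 2.83 to 3.53 Mb from the gene. *Dhx40*, an RNA helicase gene 0.224 Mb away and chosen after its values were seen, was at 32.4, 33.7 and 41.6 CPM in DKO and 57.1, 48.6, 53.99 and 69.8 CPM in late WT libraries (log2 fold change −0.68, SE 0.14, adjusted *P* = 0.0213, edgeR), with no overlap, and did not pass without DKO 1 or DKO 2. *Elobl* lies 2.42 Mb away and stood at −0.07 in *S6K1* KO MEFs.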

How the data were processed

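RNA was measured by RNA-seq in serially passaged MEFs. Per the labels and the paper's methods, the authors made strand-specific libraries of polyadenylated RNA, read them from one end, used CASAVA for demultiplexing, and after mapping counted the reads of each gene. The sources differ on the mapping: the paper's methods name mm9, TopHat and HTSeq, whereas the processing notes in the labels name mm10, STAR 2.7.1a and DESeq2 1.28.1. The strand setting, the annotation release and the treatment of multimapping reads are not given in the sources used here. The deposited values are raw counts without normalization for 55401 gene identifiers, of which 32589 were matched to a symbol (96.98% of counts). Positions and promoters are RefSeq, GRCm38.p6, matched by symbol.

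In R 4.3.3, genes were filtered with filterByExpr, scaled by TMM and tested with the quasi-likelihood test of edgeR 4.0.16 (robust fit) on the 3 groups of the *S6K1/S6K2* set, without covariates, with Benjamini-Hochberg adjustment over all genes tested and a threshold of 0.05. CPM use TMM-scaled library sizes. Differences between knockouts were fitted on 6 groups. Total counts were 10742454 to 17314832 per library. The script was tested on simulated counts. The alternatives were DESeq2 1.42.0, RLE scaling, no filter, no robust fit, fits on 2 or 6 groups, a Y-linked covariate and leaving out each library.

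Named genes were the targeted genes, *Cdkn2a*, *Cdkn1a*, *Trp53* and *Mki67*, the 10 largest rises and falls among called genes with a symbol, no overlap and at least 1 CPM in the higher group, and up to 3 called members with the smallest *P* in each of 37 lists (the leading member where none was called). Every other gene given with values was chosen after its values were seen. The members and lists were chosen with earlier results of these data known. Where all DKO libraries held 3 counts or fewer, counts are given in place of a fold change.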

Additional observations from a re-analysis of the deposited data

Results flagged for a closer look

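In 12 of the 220 sets of 4 late WT or early WT libraries examined for the named genes, 1 library stood far from the other 3, by Dixon's criterion at 95%. Chance alone gives about 1 in 20. Late WT 4 stood apart for *Xist* (245 CPM against 0 to 1.06), *Hand2* (5.90 against 10.2 to 10.5), *Aurka* (21.2 against 14.4 to 14.8), *Bub1* (17.2 against 9.74 to 10.8) and *Sfrp1* (58.4 against 84.2 to 87.4). Late WT 3 stood apart for *Trp53* (67.1 against 91.3 to 94.6 CPM) and *Fstl1* (2462 against 1947 to 1989), late WT 2 for *Gpnmb* (899 against 661 to 700), and late WT 1 for *Cd36* (9.35 against 13.9 to 14.8) and *Osmr* (142 against 103 to 105). Early WT 4 stood apart for *Scn7a* (3.14 against 2.29 to 2.41 CPM) and *E2f2* (2.54 against 1.49 to 1.63).

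The effect of the DKO differed from that of the *S6K1* KO by the interaction test for *Rps6kb2*, by −4.24 on the log2 scale (edgeR, adjusted *P* = 4.01e-06), the gene that only the DKO targets.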

How the results depend on the processing

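Against 686 calls with all libraries, leaving out 1 library gave 97 (without DKO 2) to 783 (without late WT 1), with 14 to 275 higher and 83 to 536 lower genes. Without DKO 2, 96 of the 686 remained, and without DKO 3, 152. DESeq2 called 1172 genes (339 higher), among them all 686, and the fit on the 2 groups compared called 45 genes higher. RLE scaling, no filter, no robust fit, 6 groups and the Y-linked covariate gave 552 to 689 calls, within 1.5 times of 686. The difference between knockouts gave 63 calls with DESeq2, 3 without the filter and 1 to 5 when 1 library was left out. Signs turned for *Kdm5d* (0.028) and *Xist* (−0.43) with the Y-linked covariate and for *Cdkn2a* without DKO 1 (−0.040, with a range of −0.040 to 0.41 when 1 library was left out), none of them called. *Kdm5d* is itself one of the genes averaged in the Y-linked covariate, and the cause of the other shifts was not tested. For the named genes, 1214 values under an alternative stayed on the same side of the threshold with the same sign, 321 lost and 16 gained a call. No paired analysis was possible because the labels give the libraries no replicate numbers and do not tie DKO to WT libraries. With 3 against 4 libraries, an exact permutation test of a single value cannot go below 0.0571, and at 3 counts a library could not show levels under 0.187 to 0.298 CPM.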
